A study of Mus musculus with 8 samples.

Results

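Hemoglobin and red cell genes were examined as a measure of the blood held in retinal pigment epithelium (RPE) eyecups of mice with and without Bbs8. The genes were chosen by name and comprised Hba-a1, Hba-a2, Hbb-bs, Hbb-bt, Alas2, Slc4a1 and Bpgm, which are 7 of the 31053 genes listed for each library. Bbs8, annotated as Ttc8, encodes a subunit of the BBSome, a complex that moves membrane proteins in and out of cilia. Eyecups were taken at postnatal day 11 (P11) from 4 untreated wild-type animals (Bbs8+/+) and 4 untreated knockout littermates (Bbs8-/-) of the C57/Bl6 strain, each animal giving 1 library of QuantSeq 3′ mRNA sequencing. The deletion was present in the whole animal, and the RNA came from the back of the eye after the neural retina and the front parts, lens included, had been dissected away. The cup therefore still held the choroid, the blood vessel bed behind the RPE, and perfusion of the animals was not mentioned in the sources used here. In such bulk tissue, more red cells and more globin RNA per red cell cannot be told apart.

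Hemoglobin carries oxygen as an assembly of paired alpha and beta chains, each of which holds a heme group. In the adult mouse the alpha chains come from the neighbouring genes Hba-a1 and Hba-a2, and in strains such as this one the beta chains come from Hbb-bs and Hbb-bt. Alas2, the erythroid aminolevulinate synthase, starts heme synthesis in red cell precursors, Slc4a1 is the anion exchanger of the red cell membrane, and Bpgm makes the bisphosphoglycerate that lowers the oxygen affinity of hemoglobin. Mature red cells of mammals have no nucleus, and the RNA of circulating red cells lies mostly in reticulocytes, the youngest of them.

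The genes lie at 5 places in the mouse genome (mm10, GENCODE M21 annotation). Hba-a1 (ENSMUSG00000069919, chromosome 11, 32283511 to 32284465) and Hba-a2 (ENSMUSG00000069917, chromosome 11, 32296489 to 32297298) lie on the forward strand with 12023 bases between them. Hbb-bs (ENSMUSG00000052305, chromosome 7, 103826534 to 103828096) and Hbb-bt (ENSMUSG00000073940, chromosome 7, 103812524 to 103813996) lie on the reverse strand with 12537 bases between them. Alas2 (ENSMUSG00000025270) is on the X chromosome at 150547375 to 150570638, Slc4a1 (ENSMUSG00000006574) is on chromosome 11 at 102348824 to 102366203, and Bpgm (ENSMUSG00000038871) is on chromosome 6 at 34476207 to 34505613. All 7 are protein-coding.

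The copies of each globin pair are almost the same sequence, which bears on every value below because only uniquely aligned reads were counted. The coding sequences of Hba-a1 and Hba-a2 (429 bases each) differ at 1 base, written C381T with the Hba-a1 base first and positions counted from the first coding base. Those of Hbb-bs and Hbb-bt (444 bases each) also differ at 1 base, C417T with the Hbb-bs base first. The 29 bases around each of these sites are shown from the GENCODE transcripts, 5′ to 3′, with the differing base in capitals, because within the coding sequence no other base tells the copies apart.
Hba-a1: catgcctctctggaCaaattccttgcctc
Hba-a2: catgcctctctggaTaaattccttgcctc
Hbb-bs: gtggctggagtggcCgctgccctggctca
Hbb-bt: gtggctggagtggcTgctgccctggctca
A 3′ library reads the end of the transcript, and there the pairs differ from each other in how far they can be told apart. After the stop codon Hba-a1 and Hba-a2 were identical over all 74 aligned bases, whereas Hbb-bs and Hbb-bt were 72.1% identical. The last 400 bases of a transcript hold 301 possible windows of 100 bases, the read length. Of these, 33.2% in Hba-a1 and 38.5% in Hba-a2 were absent from the annotated transcript of the other alpha copy. The annotated part after the stop codon is 90 bases in Hba-a2 and 74 in Hba-a1. Windows past the shorter end therefore count as absent, and the genome beyond that end was not compared. For Hbb-bs and Hbb-bt the shares of absent windows were 52.8% and 53.2%. An unknown share of globin reads was thus left out of the counts, more windows being shared in the alpha pair than in the beta pair, and the split between copies describes uniquely aligned reads only.

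The pairs differ in the same way upstream. In the 200 bases before the RefSeq transcript start (GRCm38.p6), Hba-a1 and Hba-a2 were identical over all 197 aligned bases, and Hbb-bs and Hbb-bt were 74.6% identical over 193. RefSeq entries were found for 6 of the 7 genes. By the GENCODE coordinates above, the 4 genes printed below start inside their windows, so these windows are not wholly upstream. The Hba-a1 window (chr11:32283472-32283671, forward strand) stands for both alpha genes, the Hbb-bs (chr7:103827929-103828128, reverse strand) and Hbb-bt (chr7:103813924-103814123, reverse strand) windows show how the beta copies diverge, and the Alas2 window (chrX:150547217-150547416, forward strand) shows a red cell gene outside the globin clusters. Each is printed 5′ to 3′ on the strand of its gene, with matches to CCAAT on either strand, to CACCC on either strand, to GATAA on either strand and to ATATAA on the gene strand in capitals.
Hba-a1: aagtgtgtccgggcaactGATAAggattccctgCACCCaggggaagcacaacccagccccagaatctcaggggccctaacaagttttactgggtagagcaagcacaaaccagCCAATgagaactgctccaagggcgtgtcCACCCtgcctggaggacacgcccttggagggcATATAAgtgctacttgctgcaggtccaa
Hbb-bs: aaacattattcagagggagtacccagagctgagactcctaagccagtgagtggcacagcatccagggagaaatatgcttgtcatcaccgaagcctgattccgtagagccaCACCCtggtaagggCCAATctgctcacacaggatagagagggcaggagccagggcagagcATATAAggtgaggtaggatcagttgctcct
Hbb-bt: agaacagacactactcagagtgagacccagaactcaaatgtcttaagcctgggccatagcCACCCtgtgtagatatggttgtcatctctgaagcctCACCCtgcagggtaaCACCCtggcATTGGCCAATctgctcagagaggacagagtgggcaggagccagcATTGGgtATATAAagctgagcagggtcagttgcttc
Alas2: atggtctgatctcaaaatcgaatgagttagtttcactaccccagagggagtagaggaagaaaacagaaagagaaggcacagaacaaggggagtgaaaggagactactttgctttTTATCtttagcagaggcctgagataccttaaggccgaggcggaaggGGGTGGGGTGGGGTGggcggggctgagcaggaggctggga
All 3 globin windows held ATATAA, which was present in 4.49% of the 32851 promoter windows of this length, and a CCAAT match, present in 29.3%. CACCC, present in 45.5% of all windows, was matched in all 4 sequences, and GATAA, present in 18.1%, was matched in Hba-a1 and, on the opposite strand, in Alas2. The matches are letters in these windows and no measure of binding, and in the printed windows no match overlapped another.

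Globin reads formed a small and fairly even part of every library. The libraries held 1636725 to 2884983 gene counts each. A level of 3 counts, taken as the lowest the depth could show, corresponded to 1.04 to 1.83 CPM (counts scaled to a common library total). This floor used the raw totals, whereas the CPM values of genes were corrected by TMM factors. The 4 adult globin genes together took 0.560%, 0.565%, 0.563% and 0.507% of the gene counts in wild-type replicates 1 to 4, against 0.601%, 0.641%, 0.601% and 0.548% in the same order of knockout replicates. The widest exact binomial 95% interval among these shares was 0.589% to 0.613%, in Bbs8-/- replicate 1; such intervals and floors cover counting error only. In CPM the summed globin level averaged 5470.3 ± 254 in wild-type and 5992 ± 351 in knockout eyecups (SD, n = 4 per genotype), a mean difference of 9.54%. Bbs8-/- replicates 1 to 3 lay above every wild-type library and Bbs8-/- replicate 4 lay within the wild-type range, so the genotypes overlapped. This sum over chosen genes was not tested. Ttc8 itself was 14.6 to 21.6 CPM in Bbs8+/+ and 2.29 to 9.70 CPM in Bbs8-/-, with no overlap (log2 fold change -1.95 ± 0.32 SE, edgeR adjusted p = 2.74e-06).

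**Figure D1:**
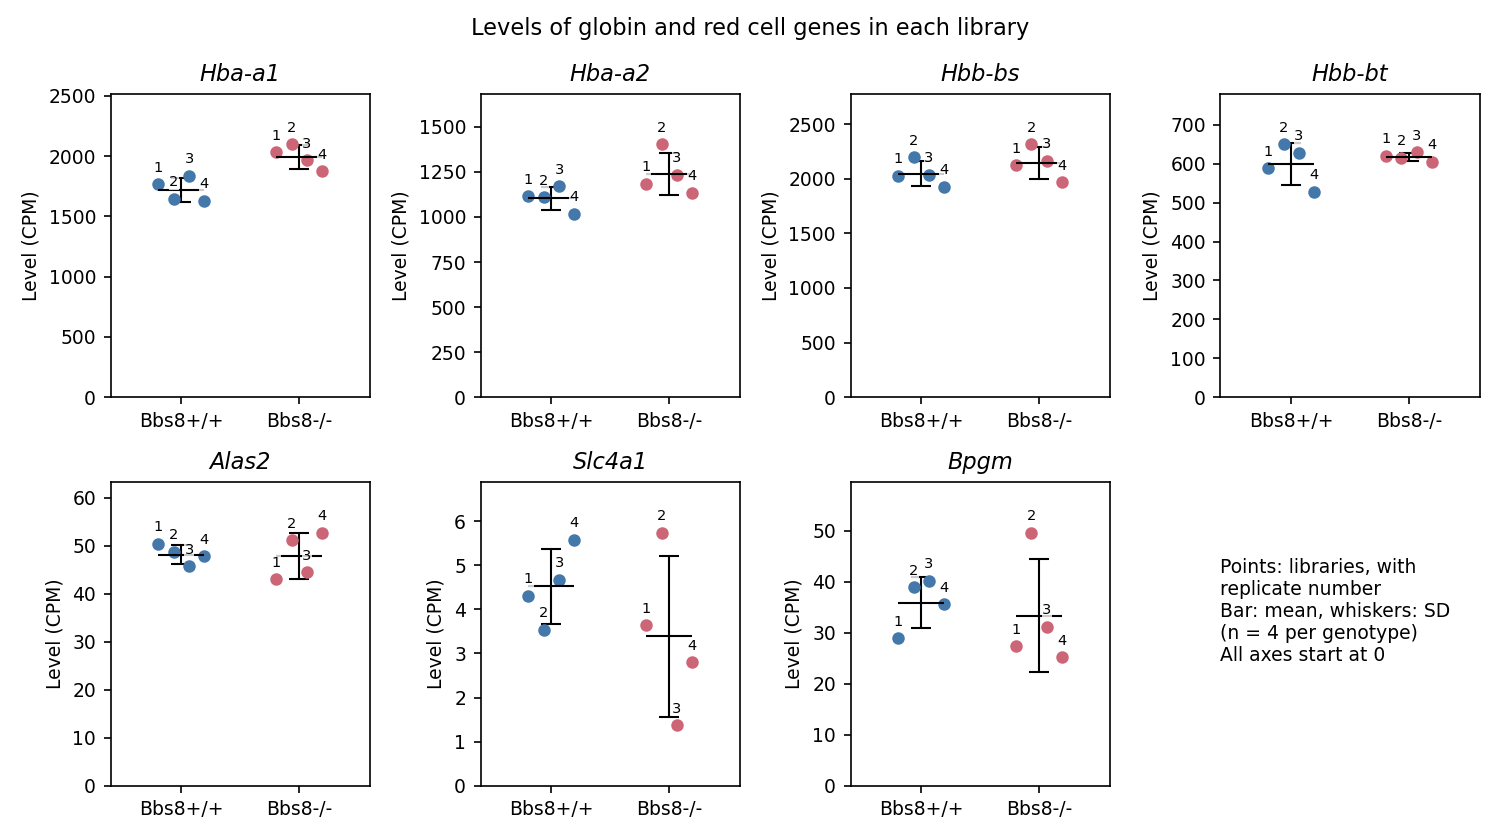
Level in CPM (TMM-normalized, linear axes from 0) of each of the 7 genes in the 4 Bbs8+/+ and 4 Bbs8-/- libraries, with points numbered by replicate, horizontal bars for the mean and whiskers for the SD (n = 4 per genotype). In Hba-a1 the 4 Bbs8-/- points (1872 to 2099 CPM) all lie above the 4 Bbs8+/+ points (1631 to 1838 CPM), and in the other 6 genes the genotypes overlap.

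The comparison of genotypes asked whether the red cell content of the eyecups differed with Bbs8. Both alpha globin genes rose in Bbs8-/- eyecups, by 15.8% for Hba-a1 and 12.3% for Hba-a2 in mean CPM, whereas the beta globin genes and the 3 other red cell genes did not pass the test. Of the 7 genes, all of which passed the filter on low counts, 2 were called higher and 0 lower at an adjusted p of 0.05, where over all 13813 tested genes 1.10% were called higher and 1.14% lower by edgeR's quasi-likelihood test with Benjamini-Hochberg adjustment. The median log2 fold change of the 7 was 0.05, beside -0.0041 over all tested genes.

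Among the alpha chain genes, Hba-a1 stood at 1768, 1647, 1838 and 1631 CPM in wild-type replicates 1 to 4, against 2033, 2099, 1964 and 1872 CPM in the same order of knockout replicates. Every knockout library lay above every wild-type library, a separation in this direction that 3.62% of all tested genes showed. The log2 fold change of Hba-a1 was 0.21 ± 0.04 (SE, 95% interval 0.12 to 0.30, edgeR adjusted p = 5.0e-04), and it stayed past the threshold in all 17 alternative analyses of its own row, leave-one-out fits included. Hba-a2 stood at 1116, 1109, 1169.8 and 1018 CPM in wild-type replicates 1 to 4, against 1184, 1404, 1233 and 1134 CPM in the same order of knockout replicates. Bbs8-/- replicate 2 stood highest, and Bbs8-/- replicate 4 lay below Bbs8+/+ replicate 3, so the genotypes overlapped in 1 library each. The log2 fold change of Hba-a2 was 0.17 ± 0.05 (SE, 95% interval 0.07 to 0.27, edgeR adjusted p = 0.0469). That call is close to the threshold: it was lost in 10 of 17 alternatives with the direction kept. Without Bbs8-/- replicate 2 the log2 fold change of Hba-a2 fell to 0.10 (edgeR adjusted p = 0.419), and without Bbs8+/+ replicate 4 it was 0.13 (edgeR adjusted p = 0.234). Nor did it pass without Bbs8+/+ replicate 1 (0.18, adjusted p = 0.0738), Bbs8+/+ replicate 2 (0.17, adjusted p = 0.0949) or Bbs8-/- replicate 3 (0.17, adjusted p = 0.102). With the replicate number as a block its adjusted p was 0.0723. When the counts of both alpha copies were added to 1 row before the fit, the log2 fold change was 0.19 ± 0.04 (SE, edgeR adjusted p = 4.23e-04).

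Among the beta chain genes, Hbb-bs stood at 2026, 2197, 2038 and 1927 CPM in wild-type replicates 1 to 4, against 2124, 2317, 2165 and 1967 CPM in the same order of knockout replicates. Only Bbs8-/- replicate 2 lay above the highest wild-type library. For Hbb-bs the log2 fold change was 0.07 ± 0.04 (SE, 95% interval -0.02 to 0.15, edgeR adjusted p = 0.548). Hbb-bt stood at 588, 650.3, 628 and 528 CPM in wild-type replicates 1 to 4, against 621, 615, 629 and 606 CPM in the same order of knockout replicates. Here the knockout libraries all lay inside the wild-type range. The log2 fold change of Hbb-bt was 0.05 ± 0.06 (SE, 95% interval -0.07 to 0.16, edgeR adjusted p = 0.814). The upper bounds of both beta intervals lie above the lower bounds of both alpha intervals. With the beta copies added to 1 row, the log2 fold change was 0.06 ± 0.04 (SE, 95% interval -0.02 to 0.14, edgeR adjusted p = 0.555).

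**Figure D2:**
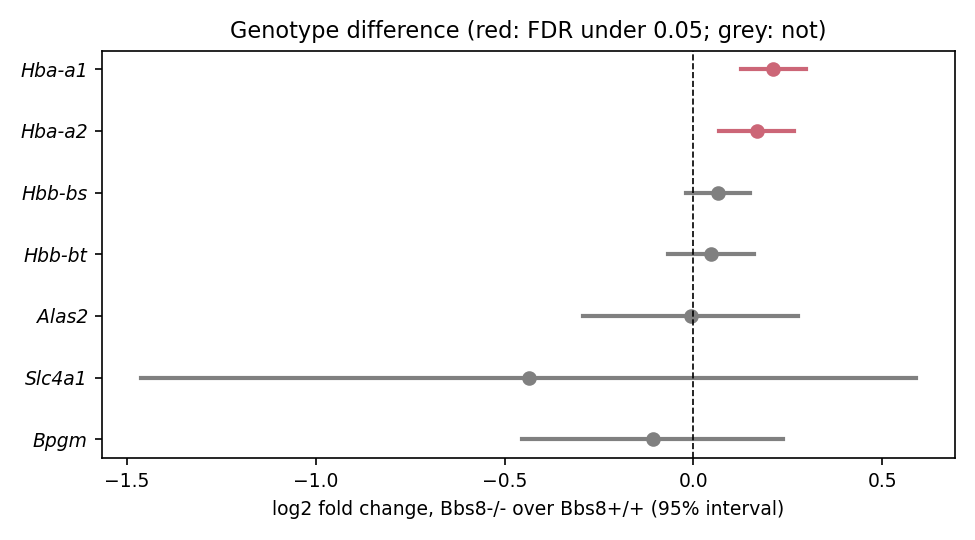
Log2 fold change of the 7 genes, Bbs8-/- over Bbs8+/+ (points) with 95% intervals (lines), from the edgeR fit over all tested genes. The intervals of Hba-a1 (0.12 to 0.30) and Hba-a2 (0.07 to 0.27) lie above 0, and those of the other 5 genes include 0, that of Slc4a1 being the widest (-1.46 to 0.59).

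The balance of alpha to beta globin reads can be read within a library, where scaling has no part. Summed Hba counts per summed Hbb count came to 1.10, 0.968, 1.13 and 1.08 in wild-type replicates 1 to 4, against 1.17, 1.19, 1.14 and 1.17 in the same order of knockout replicates. The ratio averaged 1.07 ± 0.071 in wild-type and 1.17 ± 0.021 in knockout eyecups (SD, n = 4 per genotype). All knockout libraries lay above all wild-type libraries, by a narrow margin between Bbs8+/+ replicate 3 and Bbs8-/- replicate 3, and Bbs8+/+ replicate 2 stood lowest. Whether the alpha and beta changes differ was not tested. The split within each pair was nearly constant. Hba-a1 took 60.9% ± 0.80 of Hba counts in Bbs8+/+ and 61.7% ± 1.4 in Bbs8-/-, and Hbb-bs took 77.4% ± 0.85 and 77.6% ± 1.06 of Hbb counts (SD, n = 4 each). Both splits overlapped between genotypes. The exact binomial 95% interval of the Hba-a1 share was 58.6% to 60.9% in Bbs8+/+ replicate 2 and 61.9% to 64.5% in Bbs8-/- replicate 1, the libraries with the lowest and the highest share.

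**Figure D3:**
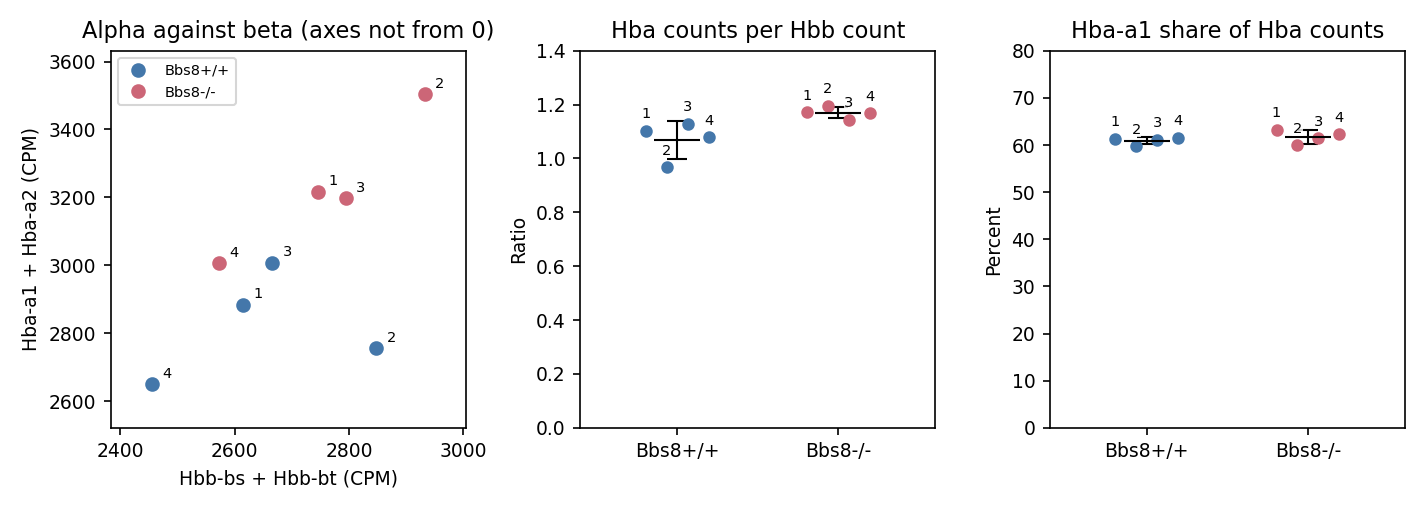
Left, summed Hba-a1 and Hba-a2 level against summed Hbb-bs and Hbb-bt level in CPM for each library, on axes that do not start at 0; middle, Hba counts per Hbb count; right, Hba-a1 share of Hba counts in percent, with bars for the mean and whiskers for the SD (n = 4 per genotype) and points numbered by replicate. The ratio is 0.968 to 1.13 in Bbs8+/+ and 1.14 to 1.19 in Bbs8-/-, while the Hba-a1 share overlaps (59.8% to 61.6% and 59.9% to 63.2%).

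The red cell genes that do not encode globin chains were measured at far fewer counts. Alas2 stood at 50.4, 48.8, 45.8 and 47.8 CPM in wild-type replicates 1 to 4, against 43.1, 51.2, 44.5 and 52.8 CPM in the same order of knockout replicates. The knockout libraries lay on both sides of the wild-type range, and the genotype means were 48.2 ± 1.94 and 47.9 ± 4.81 CPM (SD, n = 4 each). For Alas2 the log2 fold change was -0.0071 ± 0.14 (SE, 95% interval -0.29 to 0.28, edgeR adjusted p = 0.992). All 311 bases of the last exon of Alas2 (chromosome X, 150570328 to 150570638) lie under an exon of Apex2 on the opposite strand. The kit keeps strand, but the strand option used in counting is not given in the sources used here, and if strand was not used, reads over both exons may have been set aside as ambiguous and counted for neither gene. Apex2, an endonuclease gene of DNA repair, was 15.8 ± 6.43 CPM in wild-type and 17.3 ± 4.77 CPM in knockout eyecups.

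Slc4a1 was counted 10, 9, 10 and 16 times in wild-type replicates 1 to 4 against 6, 11, 3 and 6 times in knockout replicates 1 to 4, or 4.53 ± 0.85 and 3.39 ± 1.83 CPM (SD, n = 4 each). Bbs8-/- replicate 3 was at the floor of 3 counts and Bbs8-/- replicate 2 was the highest of all 8 libraries in CPM. The log2 fold change of Slc4a1 was -0.44 ± 0.52 (SE, edgeR adjusted p = 0.807), with a wide 95% interval of -1.46 to 0.59. Bpgm stood at 28.9, 38.9, 40.2 and 35.6 CPM in wild-type replicates 1 to 4, against 27.3, 49.6, 31.2 and 25.2 CPM in the same order of knockout replicates. The highest library was Bbs8-/- replicate 2, as for Hba-a1, Hba-a2, Hbb-bs and Slc4a1 and thus for 5 of the 7 genes, while Bbs8-/- replicates 1 and 4 were the lowest. Its log2 fold change was -0.11 ± 0.17 (SE, 95% interval -0.45 to 0.24, edgeR adjusted p = 0.868).

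The spread between animals can be set beside counting error. The coefficient of variation within a genotype was 5.76% and 4.88% for Hba-a1 and 5.47% and 6.72% for Hbb-bs (Bbs8+/+ and Bbs8-/-), where Poisson counting alone gives 1.54% and 1.6%, and 1.41% and 1.55%. For Alas2 the values were 4.02% and 10.1%, beside 9.22% and 10.4% from counting alone, so its libraries varied by no more than counting error. Over the 145 tested genes with a mean of at least 500 CPM, the median coefficient of variation was 4.51% in Bbs8+/+ and 3.87% in Bbs8-/-. The abundant globins were thus somewhat more variable between libraries than the median gene of that level, except Hbb-bt in Bbs8-/- (1.61%).

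The globin genes were compared library by library to see whether they moved together, over the 21 pairs of the 7 genes and on log2(CPM + 1). Only Hba-a1 and Hba-a2 passed the adjustment over the 21 pairs, with Pearson r = 0.868 (exact permutation p = 0.00139, adjusted 0.0292) and Spearman rho = 0.952 (exact permutation p = 0.00114, adjusted 0.024) over 8 libraries. Without Bbs8+/+ replicate 4 and Bbs8-/- replicate 2, the libraries farthest from the median, r was 0.803, and on deviations from the genotype means it was 0.788. These copies share sequence as well as libraries. Hbb-bs and Hbb-bt had r = 0.659 (exact permutation p = 0.0666, adjusted 0.467) and rho = 0.714 (exact permutation p = 0.0576, adjusted 0.604), and r without the same 2 libraries was 0.764. Hba-a2 and Hbb-bs had r = 0.814 (exact permutation p = 0.0116, adjusted 0.122) and rho = 0.619 (exact permutation p = 0.115, adjusted 0.604), and r without these 2 libraries was 0.296, so that relation rests on them. For Alas2, r with Hba-a1, Hba-a2, Hbb-bs and Hbb-bt was -0.192, 0.017, -0.093 and -0.193, but its spread was no larger than counting error, so these values do not show whether it followed the globins.

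As a description, the genes other than globins whose level followed the summed globin level most closely were sought among 9031 tested genes with a mean of at least 10 CPM. The 6 highest Pearson r over the 8 libraries belonged to Mfsd2a (a lysolipid transporter, r = 0.965), Ift74 (an intraflagellar transport subunit, r = 0.953), Ccnl1 (cyclin L1, r = 0.943), Tmem181a (r = 0.942), March2 (a membrane ubiquitin ligase, r = 0.930) and Odf2 (a centriole appendage protein, r = 0.925). None of them is on the red cell lists, and with 8 points and 9031 candidates such values carry no test. By the same measure Alas2 ranked 5477th (r = -0.125, and -0.104 on deviations from the genotype means) and Bpgm 2238th (r = 0.328, and 0.718 on deviations). Of the genes of other blood and vessel cells looked up, Lyz2 had r = 0.751 (0.463 on deviations), Pf4 0.702 (0.727), Pecam1 0.620 (0.708) and Kdr 0.424 (0.067), and the heme synthesis gene Alad had 0.509 (-0.406).

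The remaining globin genes and the neighbours of the clusters were examined next. The embryonic and fetal globin genes Hba-x, Hbb-y, Hbb-bh1 and Hbb-bh2 had 0 counts in all 8 libraries, which allows up to 1.04 to 1.83 CPM per library, and the theta globins Hbq1a and Hbq1b had at most 2 counts in any library. The beta genes lie among olfactory receptor genes, and of the 13 other genes within 100 kb of Hbb-bt and Hbb-bs none could be tested, 12 having 0 counts in every library. Within 100 kb of the alpha genes 5 of 9 other genes were tested and 0 were called. Nprl3, whose introns hold the alpha globin enhancers, averaged 17.7 ± 6.15 CPM in wild-type and 15.04 ± 3.49 CPM in knockout eyecups (log2 fold change -0.25 ± 0.25 SE, edgeR adjusted p = 0.760). Mpg (0.03), Rhbdf1 (-0.15), Snrnp25 (-0.21) and Sh3pxd2b (-0.32) had the other log2 fold changes, with edgeR adjusted p of 0.310 or more.

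Genes that make or mark red cells gave the wider picture. The 5 lists of other globins, heme synthesis, red cell membrane, red cell enzymes and reticulocyte genes, and erythroid regulators held 68 further genes, of which 49 were tested, 1 was called higher and 0 lower by edgeR, beside 1.10% and 1.14% of all tested genes. At an unadjusted p under 0.05, 2 of the 49 were higher and 5 lower, beside 6.38% and 6.60% of all tested genes. Of these 68, 19 had no more than 3 counts in any library and 12 had 0 counts in all of them. The gene called was Alad, the enzyme that follows aminolevulinate synthase in heme synthesis, at 100.4, 80.2, 82.7 and 86.9 CPM in wild-type replicates 1 to 4 against 116, 135, 133 and 162 CPM in knockout replicates 1 to 4. The groups of Alad did not overlap, its log2 fold change was 0.65 ± 0.10 (SE, edgeR adjusted p = 1.04e-06), and it was past the threshold in all 17 alternatives. Alad is used in heme synthesis by every cell and is no red cell marker.

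Among the other 13 tested heme synthesis genes none passed, Alas1, the housekeeping aminolevulinate synthase, having a log2 fold change of -0.17, Urod 0.19 and the heme intermediate transporter Tmem14c -0.08. The median over the 14 was -0.10, and the summed level of the list was 372 to 391 CPM in Bbs8+/+ and 404 to 434 CPM in Bbs8-/-. That separation rests on Alad, since the 13 other genes summed to 285 to 304 CPM in Bbs8+/+ and 266.6 to 303.2 CPM in Bbs8-/-, which overlapped. Of 14 tested red cell membrane genes, 0 passed and the median was 0.04, with Slc2a1 (glucose transporter, -0.07), Aqp1 (water channel, -0.01), Epb41 (-0.0029) and Cd47 (-0.05) the most abundant, all of them genes that other tissues use as well. Of 16 tested red cell enzyme and reticulocyte genes, 0 passed and the median was 0.02, with Gpx1 (0.09), Prdx2 (0.09), Cat (0.15) and Hk1 (-0.02) the most abundant. Of 5 tested erythroid regulators, 0 passed and the median was -0.15, with log2 fold changes of -0.22 for Zbtb7a, 0.22 for Lmo2, 0.13 for Zfpm1 and -0.21 for Bcl11a.

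The markers that define red cells and their precursors were low or absent. Epb42 had 0 counts in all libraries, and Gata1, the regulator that defines the erythroid lineage, had 0, as had Kel, Car1, Pklr, Trim58, Cldn13 and Hemgn. Such counts cannot show a difference as small as that measured for the alpha genes. Genes that clear heme and hemoglobin were tested for all 12 listed, 0 passed, and their median was 0.12. The most abundant of them had log2 fold changes of 0.11 (Slc48a1, a heme transporter), 0.04 (Fth1) and 0.02 (Ftl1), the ferritin chains, and -0.13 (Lrp1, a receptor for hemopexin-bound heme).

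**Figure D4:**
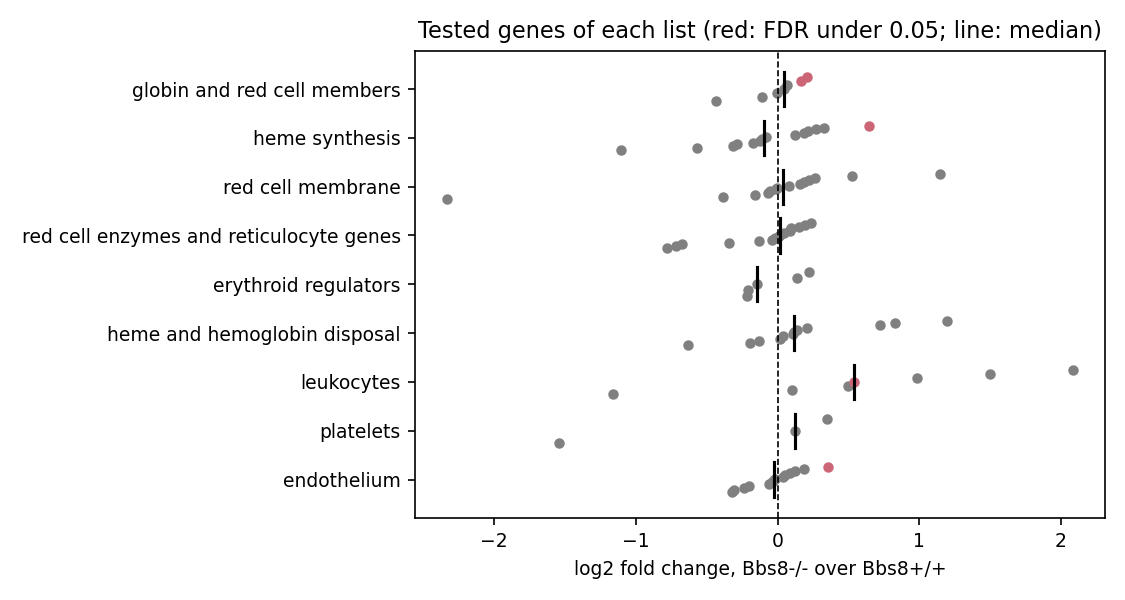
Log2 fold change, Bbs8-/- over Bbs8+/+, of each tested gene (points) of the 7 globin and red cell genes and of the lists of heme synthesis, red cell, heme disposal, leukocyte, platelet and endothelium genes, with vertical bars for the median of a list and red points for an edgeR adjusted p under 0.05. The 5 red points are Hba-a1 and Hba-a2, Alad at 0.65, Lyz2 at 0.54 and Egfl7 at 0.36.

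Other components of blood and vessel wall were measured in the same libraries. Of 16 leukocyte genes 7 were tested and 1 was called higher, Lyz2, the lysozyme of macrophages and neutrophils, at 39.8 ± 4.80 CPM in wild-type and 57.9 ± 12.2 CPM in knockout eyecups (SD, n = 4 per genotype, log2 fold change 0.54 ± 0.15 SE, edgeR adjusted p = 0.0229). Leaving out Bbs8+/+ replicate 1 or 2 or Bbs8-/- replicate 2 or 3 ended that call (edgeR adjusted p for Lyz2 0.0948, 0.085, 0.195 and 0.128). Ptprc (0.50), Coro1a (0.99) and Laptm5 (0.10) were not called, nor were the low-count neutrophil genes S100a8 (2.09, edgeR adjusted p = 0.1495, no overlap, at most 9 counts), Retnlg (1.5) and Camp (-1.16). Of the 7 tested genes 6 had values above 0, and 4 were higher and 0 lower at an unadjusted p under 0.05, beside 6.38% and 6.60% of all tested genes. The summed level of the leukocyte list was 78.2 to 101 CPM in Bbs8+/+ and 114 to 139.9 CPM in Bbs8-/-, while Cd3e, Cd3g and Cd79a had at most 1 count in any library. Of 3 tested platelet genes 0 were called, with Pf4 at 0.13, Itga2b at 0.35 and Ppbp at -1.55, and the list summed to 32.8 to 43.6 CPM in Bbs8+/+ and 36.4 to 44.9 CPM in Bbs8-/-. All 14 endothelial genes were tested, and the 1 called was Egfl7, a protein that endothelial cells secrete (log2 fold change 0.36 ± 0.09 SE, edgeR adjusted p = 0.0081). That call ended without Bbs8+/+ replicate 2 or Bbs8-/- replicate 4 (edgeR adjusted p for Egfl7 0.0863 and 0.103). The median of the endothelial list was -0.02, with 6 genes above 0 and 8 below. The most abundant besides Egfl7 were Kdr at 0.12, Ramp2 at 0.09 and Emcn at 0.04, while Tie1 (-0.32, edgeR adjusted p = 0.255, no overlap) and Cdh5 (-0.31, edgeR adjusted p = 0.335) had the lowest values. The list summed to 1178 to 1239 CPM in Bbs8+/+ and 1189 to 1281 CPM in Bbs8-/-. The part of leukocyte RNA in the alpha globin result was not tested.

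The cell types labelled were checked by their markers, and other measures of the libraries moved with genotype. The RPE markers were abundant (17048 to 17709.8 CPM in Bbs8+/+ and 17539 to 18088 CPM in Bbs8-/- over 8 genes), Best1 excepted, which had 0 to 10 counts, and 1 of the 8 was called, Pmel, a melanosome protein, lower at -0.25 (edgeR adjusted p = 2.51e-05). Of 6 lens markers 4 were called higher and their sum was 34.2 to 49.98 CPM in Bbs8+/+ and 283 to 315 CPM in Bbs8-/-, and of 5 photoreceptor markers 2 were called lower with sums of 356 to 405 and 240.0 to 296 CPM. The share of uniquely aligned reads that counting assigned to no gene was 42.1% to 43.4% in Bbs8+/+ and 44.1% to 44.4% in Bbs8-/-, without overlap. The part of these differences in the alpha globin result was not tested.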

How the data were processed

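RNA of eyecups from 8 P11 mice was sequenced in single-end reads of 100 bases. The authors trimmed the reads with BBDuk, aligned them with STAR to mm10 and counted uniquely aligned reads with htseq-count, and the deposited values are raw counts per gene. No molecular identifiers were named. The filter of the study that used multi-mapped reads was not applied. Counter summary lines were kept out of library sizes. Symbols came from GENCODE M21 (30934 of 31053 identifiers). Genes reaching 1 CPM in 4 or more libraries entered the test in edgeR 4.0.16 (R 4.3.3; TMM, quasi-likelihood F test, two-sided, genotype as the only factor), with Benjamini-Hochberg adjustment over all 13813 tested genes and a threshold of 0.05. A standard error is the log2 fold change divided by the square root of F. Correlations used log2(CPM + 1) and two-sided exact permutation over all pairings. The procedure was tested on simulated counts. The genes and the gene lists were chosen with earlier results of these data known. Genes named were the 7 chosen genes, Ttc8, listed genes past the threshold or among the 4 most abundant tested genes of a list, and the 6 genes most like the globin sum. Marker genes, cluster neighbours, Apex2, Tie1, Cdh5, S100a8, Retnlg and Camp were named in addition, the last 6 after their values were seen. Some listed genes are not reported here. Alternatives were RLE size factors, library totals only, scaling without globins or without Gm42418 and mitochondrial genes, no filter or filterByExpr, the DESeq2 1.42.0 Wald test, a replicate block, thinning to the smallest library, adding up the copies, and leaving out each library.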

Additional observations from a re-analysis of the deposited data

Results flagged for a closer look

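Dixon's test at the 95% level was run on 52 groups of 4 libraries, namely the levels, sums and shares of the globin and red cell genes and the summed level of each list, within each genotype. It marked 4 of them, where chance marks about 1 in 20, or 2.6. The summed level of the other globin genes reached 0.786 CPM in wild-type replicate 2 and, in knockout replicate 1, 1.21 CPM, and was 0 in all other libraries. Both values are at most 2 counts, below the floor of 3. The summed level of the red cell enzyme and reticulocyte genes was 877 CPM in Bbs8-/- replicate 3, beside 822 to 824 CPM in the other knockout libraries. The summed level of the photoreceptor markers was 240.0 CPM in Bbs8-/- replicate 4, beside 291 to 296 CPM in the other knockout libraries. None of the 7 globin and red cell genes was marked within a genotype.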

How the results depend on the processing

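Hba-a1 kept its direction and its call in all 17 alternatives that tested its own row, with log2 fold changes of 0.19 to 0.24. Hba-a2 kept its direction but lost its edgeR call in 10 of 17, namely with library totals only (0.16, adjusted p = 0.0698), no filter (0.17, adjusted p = 0.0636), the DESeq2 Wald test (0.17, adjusted p = 0.0901), the replicate block (0.16, adjusted p = 0.0723), thinned libraries (0.16, adjusted p = 0.0794) and 5 of 8 leave-one-out fits, over which it ranged from 0.10 to 0.21 (adjusted p from 0.0102 to 0.419). It stayed past the threshold under RLE, filterByExpr and the 2 scalings without named genes, as did the row of both alpha copies added up (0.19). Over leave-one-out fits Hbb-bs ranged from 0.03 to 0.11, Hbb-bt from -0.0084 to 0.093, Alas2 from -0.058 to 0.042, Slc4a1 from -0.82 to -0.16, Bpgm from -0.36 to 0.011 and the summed globin level from 0.10 to 0.16; none of these genes was called in any alternative that gave it an adjusted p, which for Slc4a1 leaves out filterByExpr and DESeq2. The sign turned for Alas2 in 4 of these fits, for Hbb-bt in 1 and for Bpgm in 1, and the cause was not tested. Leave-one-out counts of genes called ranged from 114 to 172 higher and 101 to 150 lower, the lowest lower count being that without Bbs8-/- replicate 1. Libraries of the same replicate number did not deviate together (correlations of same-numbered deviations -0.028 to 0.020 over 9035 genes). Such values cannot show whether the numbers stand for litters or other pairs. The replicate block gave 134 higher and 129 lower. Among the 7 genes the block ended the call of Hba-a2 and changed no other. Depth limits Slc4a1, at 3 to 16 counts, most.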
